A study of Rattus norvegicus with 8 samples.

Results

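The insulin-like growth factor (IGF) system was followed through 10 named genes: the ligands Igf1 and Igf2, the receptors Igf1r and Igf2r, and the binding proteins Igfbp2, Igfbp3, Igfbp4, Igfbp5, Igfbp6 and Igfbp7. Every non-control array probe whose gene name was one of these was taken, and each probe was kept apart. This gave 15 probes of 9 genes among 41012 probes on the array, and Igfbp7 had no probe. Of the 15 probes, 9 probes of 7 genes lay well above background on at least 3 of the 4 arrays of a group and could be tested, among 24853 such probes in all. The 6 probes that could not be tested were both of Igfbp3, both of Igfbp5 and 2 of the 4 of Igf1.

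The study, by its title, concerns lnc19959.2 and genes of triglyceride metabolism, and the IGF genes are read here from the same arrays. The cells were BRL-3A, an established line derived from rat liver. One group of 4 samples received an siRNA directed at lnc19959.2, a long noncoding RNA, and is called siRNA here, and the other 4 samples carried the transfection label NC. Both groups received lipofectamine 2000 and both were collected at 48 h. RNA of each sample was hybridised to its own Agilent rat array in 1 colour, and nothing in the labels says that the 4 samples of a group were separate cultures, so p-values measure the spread between these samples. The level of lnc19959.2 was not analysed here, and the knockdown was therefore not checked. All NC arrays lay on slide 1 and were read in scan 1, and all siRNA arrays lay on slide 2 and were read in scan 2, so slide, scan and treatment cannot be told apart.

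IGF-I and IGF-II are small secreted growth factors that signal through Igf1r, a receptor tyrosine kinase. Igf2r, the cation-independent mannose 6-phosphate receptor, takes up IGF-II and delivers it to lysosomes, where it is broken down. The binding proteins carry the ligands outside the cell and either hold them back from the receptor or release them to it, and adult liver is the main source of circulating IGF-I. BRL-3A cells have a history in this field, since rat IGF-II was purified as multiplication-stimulating activity from medium conditioned by this line, and the binding protein now called Igfbp2 was isolated from the same medium.

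Hybridisation reads only the bases of a probe, so the sequences say which transcripts each value stands for. The Igf1 gene is transcribed from alternative leader exons that are spliced to a common exon, and 2 of its 4 probes read across this junction. Probe A_44_P126021 (rn4 chr7:24531970-24537063, plus strand, per the file annotation) is 60 bases long but spans 5094 bases of the genome, and 18 of its bases lie in the exon that it shares with A_44_P421499 (chr7:24533810-24537048). A_44_P421499 has 57 bases on the side of another leader exon and only 3 in the common one. The junction probes are shown 5′ to 3′ with the bases of the common exon in capitals, the first whole and the second by its last 30 bases.
Igf1 A_44_P126021: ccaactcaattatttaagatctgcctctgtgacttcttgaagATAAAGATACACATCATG
Igf1 A_44_P421499: ggacgtaccaaaatgagcgcacctccaATA
The third probe, A_44_P421502, lies directly before A_44_P421499 (rn4 chr7:24533750-24533809), and the file annotation gives both the same transcript. In the RefSeq promoter window of Igf1 (assembly GRCr8) it matched bases 71 to 12 before the first annotated base, at chr7:24172461-24172520. A_44_P421499 matched from 11 bases before to 45 bases after that base. By RefSeq, A_44_P421502 thus lies wholly before the leader and A_44_P421499 partly so. The fourth, A_44_P366723 (rn4 chr7:24604715-24604774), lies further down the gene, and its first 30 bases are shown.
Igf1 A_44_P366723: agcaacctgcaaaacatcggaacacctgcc

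Igfbp genes descend from a common ancestor, so shared bases between their probes were counted. The longest run shared by probes of different genes was 12 bases, between Igfbp3 A_44_P180127 (rn4 chr14:87961611-87962505) and the only Igfbp6 probe (A_44_P378799, chr7:140888422-140888481), and the next longest over the 96 pairs was 9 bases. The shared run is in capitals.
Igfbp3 A_44_P180127: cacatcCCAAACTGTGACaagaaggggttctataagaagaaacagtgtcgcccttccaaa
Igfbp6 A_44_P378799: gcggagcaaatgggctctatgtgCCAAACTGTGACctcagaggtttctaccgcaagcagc
The other probes the results turn on are given below, Igf2 (A_44_P1037953, chr1:202906641-202906700), Igf2r (A_44_P1003212, chr1:42340766-42340825) and the brighter Igfbp4 probe (A_43_P16767, chr10:87834213-87834272) by their first 30 bases. Igf1r (A_44_P474037, chr1:122989150-122989209), Igfbp2 (A_44_P547185, chr9:71967157-71967216) and the dimmer Igfbp4 probe (A_44_P515317, chr10:87829564-87829623) are whole. All these positions are rn4; exon and UTR annotation of that build was not used here.
Igf2: ttctggcaaaatccaaagcttgggttttgt
Igf2r: ttagcattgtaattctctccccctatttat
Igfbp4 A_43_P16767: ttagagacctgcttgttggctataatgtct
Igf1r: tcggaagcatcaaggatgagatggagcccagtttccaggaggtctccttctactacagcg
Igfbp2: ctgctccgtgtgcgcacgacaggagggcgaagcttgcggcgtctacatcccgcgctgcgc
Igfbp4 A_44_P515317: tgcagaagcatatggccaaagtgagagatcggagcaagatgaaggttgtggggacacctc

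Of the 9 tested probes, 8 were higher and 1, Igf1r, was lower in siRNA than in NC arrays (limma, Benjamini-Hochberg adjusted over all 24853 probes, threshold 0.05). All 9 were above background on all 8 arrays, and no NC value overlapped any siRNA value. The background is high: 61.6% of all tested probes were called, 29.4% higher and 32.2% lower, and 28.2% were higher and 29.9% lower with no overlap. Of the 9, 6 probes, of Igf2, Igf1, Igfbp2 and Igfbp4, were called higher and at least 2-fold up, beside 3.35% of all tested probes. The median difference of the 9 probes was 1.57 on the log2 scale, beside -0.03 over all tested probes. A value per array is given below as a multiple of that array's 75th percentile of probe intensity; it can be compared between arrays for 1 probe, not between probes. In such bulk RNA, more cells with a transcript and more transcript per cell cannot be told apart.

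Igf2, the fetal growth factor that this line is known to secrete, stood out most. Its 4 NC arrays were at 35.8, 35.5, 33.9 and 35.4 times the 75th percentile, and its 4 siRNA arrays at 169, 159, 176 and 162 times. Both groups were narrow and far apart. The difference was 2.24 ± 0.05 (SE, n = 4 and 4) on the log2 scale, 4.72-fold, with a limma adjusted p of 1.34e-07. Only 0.294% of the tested probes differed upward by at least as much. No pixel of the Igf2 spot was saturated: its mean pixel intensity was 9610 to 10808 on NC and 55278 to 59479 on siRNA arrays, below the highest spot of any array, 171460 to 187386.

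Igf1, the ligand that growth hormone drives in liver, rose on both of its measurable probes. The downstream probe A_44_P366723 read 3.38, 3.34, 2.76 and 3.89 in NC and 10.5, 12.7, 11.7 and 12.7 in siRNA arrays. The leader probe A_44_P126021 read 0.343, 0.339, 0.318 and 0.414 in NC and 0.942, 1.11, 1.03 and 1.11 in siRNA arrays. On either probe the highest NC array was replicate 4 and the lowest siRNA array replicate 1, and the groups did not overlap. The differences were 1.84 ± 0.11 (SE), 3.57-fold, for the downstream probe (limma adjusted p = 1.03e-05) and 1.57 ± 0.10 (SE), 2.97-fold, for the leader probe (limma adjusted p = 9.69e-06), n = 4 and 4. With normexp background correction the leader probe's difference was 0.80 (limma adjusted p = 0.0395).

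The 2 other Igf1 probes gave no measurable signal. A_44_P421499 lay at an intensity of 8.26 to 13.8 over the 8 arrays and was above background on 0 of them. A_44_P421502, printed 10 times on each array, lay at 3.53 to 8.06 and was also above background on 0. For scale, the dimmest probe that counted as above background had an intensity of 10.5 to 15.5, depending on the array. The Igf1 signal of these cells was therefore read from the leader of A_44_P126021 and from the downstream probe. The other leader was not detectable on A_44_P421499, while A_44_P421502 lies before the RefSeq start and may not read that leader.

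**Figure D1:**
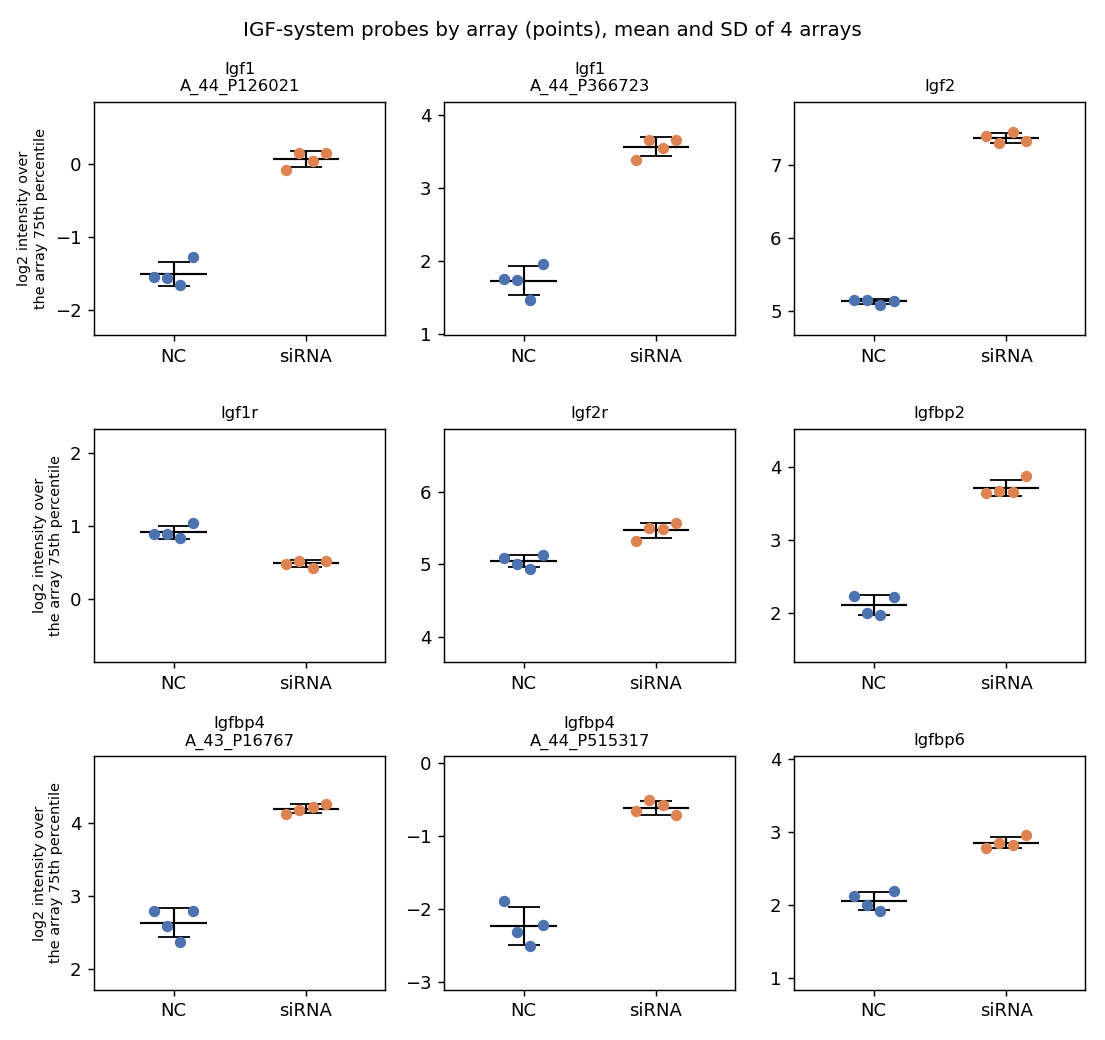
Log2 intensity over the array's 75th percentile (y axis) of the 9 tested IGF-system probes in the 4 NC and 4 siRNA arrays; points are arrays, lines and bars the mean and SD, and every panel spans the same log2 height. The siRNA arrays lie above the NC arrays in every panel but that of Igf1r, where they lie below, and in no panel do the groups overlap.

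The receptors moved by less than the ligands, and in opposite directions except with spike-in scaling, where Igf1r turned positive. Igf1r, the signalling receptor, read 1.85, 1.84, 1.78 and 2.05 in NC and 1.39, 1.43, 1.33 and 1.44 in siRNA arrays. The highest siRNA array thus stayed under the lowest NC array. The difference was -0.43 ± 0.06 (SE, n = 4 and 4), 1.34-fold lower, with a limma adjusted p of 0.000436, and 25.4% of all tested probes fell by at least as much. Its probe was printed 10 times per array, and the SD over those spots was 0.02 to 0.08 on the log2 scale, beside 0.09 and 0.05 between the NC and between the siRNA arrays. The Igf1r call depends on the scaling between arrays: scaled to the array median the difference was -0.11 (limma adjusted p = 0.191), scaled to spike-in spots it turned to 0.12 (limma adjusted p = 0.167), and with normexp background correction it was -0.28 (limma adjusted p = 0.187).

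Igf2r, the clearance receptor for IGF-II, read 34.0, 32.3, 30.8 and 35.0 in NC and 40.1, 45.2, 44.8 and 47.4 in siRNA arrays. The groups were apart, though by less than for the ligands. It rose by 0.43 ± 0.07 (SE, n = 4 and 4), 1.34-fold, with a limma adjusted p of 0.00106, and 16.7% of tested probes rose by at least as much. With spike-in scaling the difference was 0.97, and with normexp background correction it was 0.77 and missed the threshold (limma adjusted p = 0.0684).

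Among the binding proteins, Igfbp2 and Igfbp4 rose about equally and Igfbp6 by less. Igfbp2, abundant in fetal serum and a product of this line, read 4.68, 4.00, 3.90 and 4.63 in NC and 12.5, 12.7, 12.6 and 14.7 in siRNA arrays, with siRNA replicate 4 above the other siRNA arrays. It rose by 1.61 ± 0.09 (SE, n = 4 and 4), 3.05-fold, with a limma adjusted p of 5.87e-06.

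Igfbp4, generally an inhibitor of IGF action until it is cut by the protease PAPP-A, was measured by 2 probes. The brighter, A_43_P16767, read 6.91, 5.97, 5.16 and 6.89 in NC and 17.3, 18.0, 18.6 and 19.1 in siRNA arrays. The dimmer, A_44_P515317, read 0.270, 0.201, 0.177 and 0.216 in NC and 0.636, 0.708, 0.676 and 0.611 in siRNA arrays. Either probe separated the groups, and NC replicate 3 was the lowest array on both. The differences were 1.56 ± 0.10 (SE), 2.95-fold, and 1.62 ± 0.13 (SE), 3.08-fold (limma adjusted p = 1.26e-05 and 3.11e-05, n = 4 and 4). With normexp background correction the dimmer probe's difference was 0.79 (limma adjusted p = 0.0644).

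Igfbp6, which binds IGF-II in preference to IGF-I, read 4.36, 4.00, 3.80 and 4.59 in NC and 6.91, 7.24, 7.10 and 7.78 in siRNA arrays. The groups did not overlap. It rose by 0.80 ± 0.07 (SE, n = 4 and 4), 1.74-fold, with a limma adjusted p of 6.81e-05, and 5.87% of tested probes rose by at least as much. With spike-in scaling the difference was 1.34.

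Igfbp3, the main carrier of IGF-I in serum, and Igfbp5, a binding protein of bone and muscle, were not measurable. Igfbp3 A_42_P627998 (rn4 chr14:87960494-87960553) lay at an intensity of 2.60 to 11.7 and A_44_P180127 at 3.99 to 9.22, and neither was above background on any array. Of the 80 spot readings of A_44_P180127, 11 were marked as outliers by the scanner software and 5 unmarked ones were above background. Igfbp5 A_44_P264240 (chr9:72000312-72000371) was above background on 0 arrays, at 2.43 to 12.4, and A_44_P285534 (chr9:72003659-72003718) on 2 NC and 0 siRNA arrays, at 3.45 to 20.5. The Igfbp6 signal stood well above background on every array on which the Igfbp3 probe with the 12 shared bases did not.

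**Figure D2:**
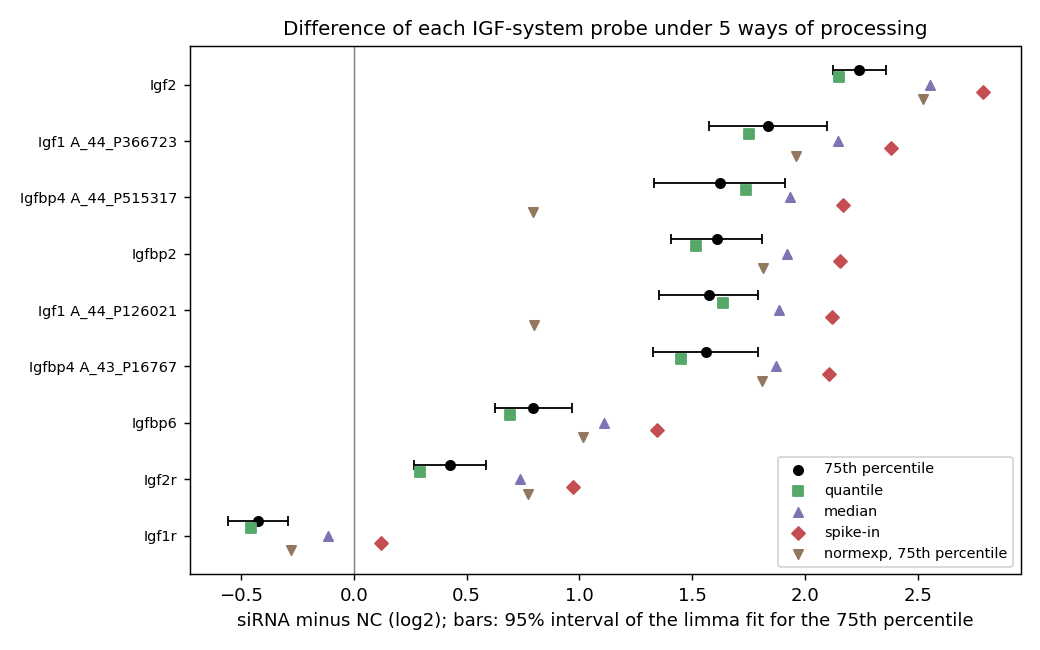
Difference of each tested probe, siRNA minus NC on the log2 scale (x axis), under 5 ways of processing; black points with bars are the values of the text with their 95% intervals, coloured markers the alternatives. Igf2, Igf1, Igfbp2, Igfbp4, Igfbp6 and Igf2r lie right of 0 under each, and Igf1r lies at -0.43, at -0.11 with the array median and at 0.12 with spike-in scaling.

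The choice of scaling also moved the level of all tested probes. Relative to the 75th percentile, the median of all tested probes shifted by 0.31 with the array median, by 0.55 with 7 spike-in probes and by -0.16 with normexp background correction. The share of all tested probes called higher and lower changed with it, from 29.4% and 32.2% to 52.4% and 16.9% with the array median, to 65.9% and 10.8% with the spike-in probes, to 23.9% and 38.2% with the 75th percentile of probes above background on all arrays, to 32.4% and 27.6% with quantile normalization, and to 7.79% and 6.82% with normexp. Igf2 stayed between 2.15 and 2.79 over these scalings and Igfbp2 between 1.51 and 2.15.

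Ratios of 2 probes within an array do not depend on a scaling factor of that array. Of 8 such ratios, 6 differed between the groups at the smallest p that 4 against 4 arrays allow (two-sided exact permutation test, p = 0.0286, adjusted p = 0.0381 over the 8). The other 3 planned ratios needed Igfbp3, Igfbp5 or Igfbp7 and could not be run. Only the change of a ratio is given, since its level has no meaning across probes.

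Ligand against receptor moved most. The log2 ratio of Igf1 to Igf1r was higher in siRNA by 2.26 (SD 0.13 in NC and 0.11 in siRNA, n = 4 and 4), and that of Igf2 to Igf2r by 1.81 (SD 0.06 and 0.14). In both, all 4 siRNA arrays were above all 4 NC arrays. The signalling receptor against the clearance receptor, Igf1r over Igf2r, was lower by 0.85 on the log2 scale (SD 0.05 and 0.10), with all 4 siRNA arrays below all 4 NC arrays. The receptors thus changed unequally under any scaling factor, whichever sign Igf1r takes.

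Ratios among the raised members were closer together. Igf2 gained 0.40 over Igf1 (SD 0.18 and 0.18) and 0.63 over Igfbp2 (SD 0.12 and 0.15), again with no overlap. The first of these missed the threshold without NC replicate 4 or without any 1 of the siRNA arrays (0.33 to 0.46, exact permutation, adjusted p = 0.0762), and the other 5 ratios that passed did so without any 1 array. Igfbp2 against Igfbp4 differed by 0.05 (SD 0.08 and 0.08; exact permutation p = 0.400, adjusted p = 0.457), which is within the spread between arrays. The brighter against the dimmer Igfbp4 probe differed by -0.06 (SD 0.13 and 0.12; exact permutation p = 0.457), but by 1.02 after normexp background correction (exact permutation, adjusted p = 0.0327). The downstream against the leader probe of Igf1 gained 0.26 (SD 0.09 and 0.02), and 0.12 with quantile normalization and 1.16 with normexp, so the size of this gain depended on how the arrays were processed.

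**Figure D3:**
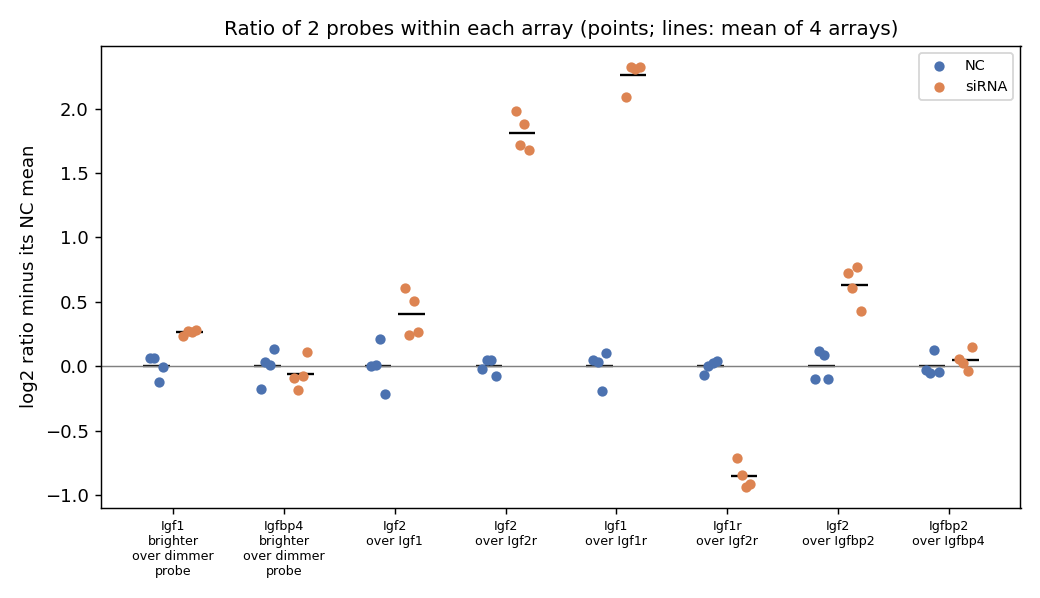
Log2 ratio of 2 probes within each array minus the NC mean of that ratio (y axis) for the 8 ratios tested (x axis); points are arrays and lines the means of 4. Igf1 over Igf1r and Igf2 over Igf2r lie highest in siRNA, at 2.26 and 1.81, Igf1r over Igf2r lies at -0.85, and the ratios of Igfbp2 to Igfbp4 and of the Igfbp4 probes overlap between groups.

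The bases before the RefSeq starts of the members were read from the promoter table (GRCr8). The 10 genes had 11 windows of 250 bases before a start. The only Igf1 window belongs to the start beside A_44_P421499. The bases before the leader read by A_44_P126021, which carried signal, were not examined. The TATA motif TATAAA, searched on both strands, occurred in 1 window, that of Igfbp4, with its first base 40 bases before the start, and in 12.9% of 33469 promoters in the table. The GC box core GGGCGG occurred on either strand in 5 windows and in 30.5% of the promoters. These 5 were of Igf2, Igfbp2, Igf2r, Igf1r, which was called lower, and Igfbp7, which had no probe. It was absent from the windows of Igf1, Igfbp4 and Igfbp6, which rose, and of Igfbp3 and Igfbp5. The windows of the genes that rose most and hold a motif are shown, motifs in capitals: Igf2 (chr1:207250476-207250725, minus strand), Igfbp2 (chr9:81864561-81864810, plus strand) and Igfbp4 (chr10:84491221-84491470, plus strand).
Igf2: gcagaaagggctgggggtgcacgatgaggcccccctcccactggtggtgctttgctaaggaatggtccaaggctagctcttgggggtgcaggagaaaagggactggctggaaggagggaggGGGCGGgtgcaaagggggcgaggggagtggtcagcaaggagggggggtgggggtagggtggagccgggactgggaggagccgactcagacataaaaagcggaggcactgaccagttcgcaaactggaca
Igfbp2: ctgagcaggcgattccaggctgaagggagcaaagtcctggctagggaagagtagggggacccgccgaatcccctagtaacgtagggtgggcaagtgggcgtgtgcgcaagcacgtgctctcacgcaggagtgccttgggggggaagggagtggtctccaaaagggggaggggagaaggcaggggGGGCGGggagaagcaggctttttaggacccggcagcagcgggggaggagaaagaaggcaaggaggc
Igfbp4: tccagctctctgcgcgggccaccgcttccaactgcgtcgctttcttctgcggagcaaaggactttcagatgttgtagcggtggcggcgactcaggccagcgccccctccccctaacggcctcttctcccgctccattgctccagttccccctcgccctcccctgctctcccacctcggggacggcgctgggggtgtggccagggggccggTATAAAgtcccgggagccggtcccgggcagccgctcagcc
Igf2 has a further annotated start at which neither motif was found (chr1:207253981-207254230), and its only probe does not tell the starts apart. These matches describe letters in a window and say nothing of which factor binds. Any link between the motifs and the differences between groups was not tested.

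At the 75th percentile scaling the genes around the IGF system changed in both directions. Of 100 listed pathway genes in 7 lists, 79 were measured, each by its brightest tested probe: 22 were called higher, 28 lower and 29 were not called, with a median difference of -0.07. Among all 10861 measured genes 35.7% were higher and 29.1% lower, with a median of 0.04. This balance rested on the scaling: with the array median 39 pathway genes were higher and 16 lower (median 0.24), and with spike-in scaling 56 were higher and 7 lower (median 0.47), where 11 of the 28 lower genes turned positive. With normexp 8 were higher and 6 lower (median -0.18). The counts and medians of each list below are those of the 75th percentile.

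In the processing and carriage of IGF proteins 5 of 10 genes were higher and 3 lower (median 0.25). Pcsk6, a proprotein convertase, rose by 1.44 ± 0.11 (SE) and its relative Furin by 0.80 ± 0.08. Htra1, a serine protease that cuts IGF-binding proteins, fell by 0.90 ± 0.07, from 1.79 to 2.14 times the 75th percentile in NC to 1.03 to 1.10 in siRNA arrays. Stc2, a stanniocalcin that inhibits PAPP-A, fell by 0.62 ± 0.06, and by 0.08 with spike-in scaling (limma adjusted p = 0.428). Pappa, which encodes the protease that cuts Igfbp4 and was picked out after its values were seen, fell by 1.01 ± 0.13, with NC arrays at 2.95 to 4.37 and siRNA arrays at 1.58 to 2.07 (limma adjusted p = 0.000372). A second Pappa probe was at -1.07. The first was at -0.47 with spike-in scaling, -0.70 with the array median and -0.71 with normexp, so the size of the fall depended on the processing. Igfals, the partner of Igfbp3 in the circulating complex, was above background on 0 arrays.

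Of the genes that bind IGF mRNAs or carry the growth hormone signal, 4 of 8 were higher and 2 lower (median 0.08). Ghr, the growth hormone receptor, read 0.186, 0.158, 0.167 and 0.183 in NC and 0.426, 0.492, 0.495 and 0.498 in siRNA arrays. No siRNA array was as low as any NC array, and siRNA replicate 1 was the lowest of its group. Ghr rose by 1.46 ± 0.08 (SE), 2.75-fold, but by 0.41 after normexp background correction (limma adjusted p = 0.268). The signal transducers Stat5a and Stat5b rose by 0.84 ± 0.06 and 0.37 ± 0.07, although Stat5b turned to -0.15 with normexp (limma adjusted p = 0.650), and the transcription factor Cebpb fell by 0.66 ± 0.11, a call lost with spike-in scaling (-0.12) and with normexp (-0.43).

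Downstream of the receptor, 4 of 14 adaptors and brakes were higher and 6 lower (median -0.09). Irs2, an adaptor of the insulin and IGF-I receptors, fell by 0.93 ± 0.05 (SE), from 3.48 to 3.80 in NC to 1.88 to 2.01 in siRNA arrays, and a second probe was at -1.77. Grb10, an adaptor that restrains the same receptors, rose by 0.93 ± 0.08, from 7.05 to 8.32 in NC to 13.5 to 15.3 in siRNA arrays. With spike-in scaling Irs2 was at -0.38 and Grb10 at 1.47, and with the array median at -0.62 and 1.24, so the directions held under these scalings and the sizes did not. Gab1, a docking protein, fell by 0.56 ± 0.06 and Ptpn1, a non-receptor tyrosine phosphatase, by 0.52 ± 0.07. With spike-in scaling these differences were -0.01 and 0.03, and with normexp neither passed the threshold. A second Gab1 probe was at -1.46 and a second Ptpn1 probe at -0.31.

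Among the PI3K, Akt and mTOR genes 4 of 26 were higher, 9 lower and 13 not called (median -0.13). Pik3r2, a regulatory subunit, rose by 0.75 ± 0.08 (SE) and the kinase Akt2 by 0.79 ± 0.09, the latter at 0.0049 with normexp (limma adjusted p = 0.990). Pik3cd, a catalytic subunit, fell by 0.64 ± 0.05, but by 0.09 with spike-in scaling (limma adjusted p = 0.263), and missed the threshold with normexp (limma adjusted p = 0.126). Foxo3, a transcription factor held back by Akt, was above background on 4 NC and 0 siRNA arrays. At the scaling used for the counts of this list it was at least 2.26-fold lower. The fold is a bound because the siRNA side was set to the dimmest signal above background of each array or the probe's own, whichever was higher. The fitted log2 difference of Foxo3, which rests partly on values below background, was -1.23 at that scaling (limma adjusted p = 4.85e-05). It was smaller with spike-in scaling, at -0.69, and with normexp, at -0.70 (limma adjusted p = 0.138 with normexp).

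The mannose 6-phosphate sorting genes, which handle the cargo of Igf2r, had 3 of 8 higher and 2 lower (median 0.08). Gga2, a sorting adaptor of the Golgi, rose by 0.76 ± 0.06 (SE) and M6pr, the smaller mannose 6-phosphate receptor, by 0.36 ± 0.06, the latter not past the threshold with normexp (0.60, limma adjusted p = 0.0847) and at 0.04 on a second probe. Gga3 and the retromer subunit Vps26a fell by 0.35 ± 0.06 and 0.29 ± 0.08, but turned to 0.20 and 0.25 with spike-in scaling, a second Gga3 probe was at -0.12, and Vps26a to 0.02 with the array median. The insulin relatives had 0 of 5 higher and 2 lower (median -0.14): Ins2, a rat insulin gene, was called lower but was above background on 4 NC and only 1 siRNA arrays, so its fitted difference of -1.32 rests partly on values below background, and Rxfp1, the relaxin receptor, fell by 0.65 ± 0.13. Neither passed with normexp (limma adjusted p = 0.117 and 0.137), and Rxfp1 was at -0.10 with spike-in scaling (limma adjusted p = 0.431).

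Secreted proteins that carry an IGFBP domain without belonging to the family had 2 of 8 higher and 4 lower (median -0.37). Kazald1 rose by 1.83 ± 0.09 (SE), from 1.56 to 1.99 in NC to 6.02 to 6.84 in siRNA arrays. Esm1, also called endocan, fell by 3.20 ± 0.34, from 2.60 to 3.95 in NC to 0.186 to 0.573 in siRNA arrays, the largest difference among the named pathway genes. The matricellular proteins Ccn1 and Ccn4 fell by 0.59 ± 0.08 and 0.50 ± 0.06, but with spike-in scaling they were at -0.05 and 0.05, and neither passed with normexp.

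**Figure D4:**
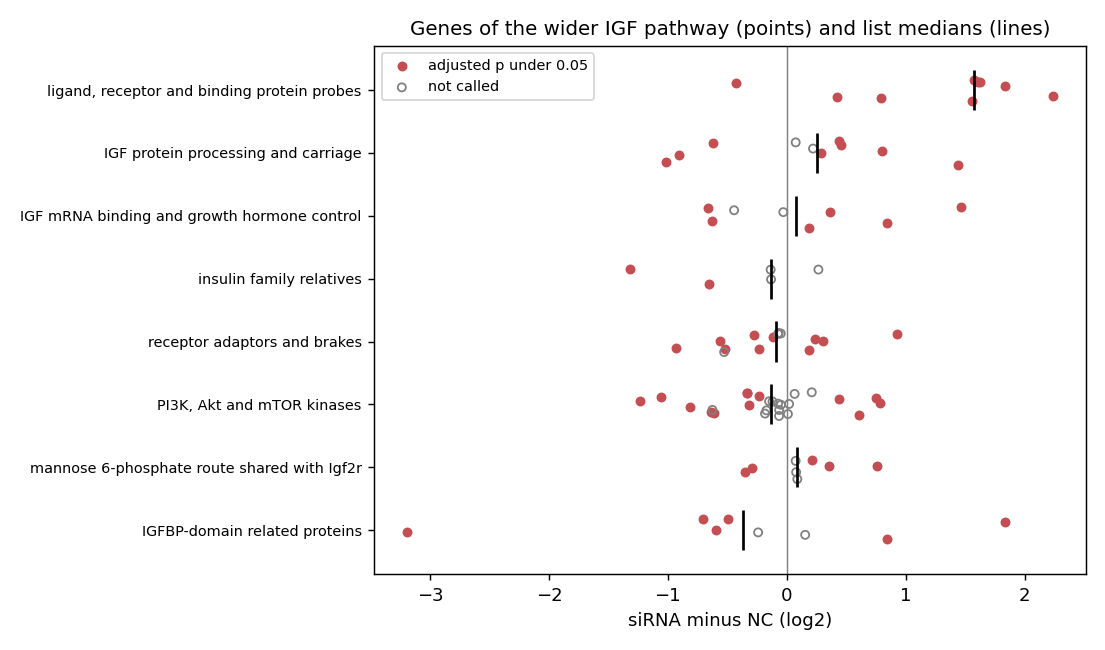
Difference of each measured pathway gene, siRNA minus NC on the log2 scale (x axis), by list, at the 75th percentile scaling, with the 9 IGF-system probes on top; filled points passed an adjusted p of 0.05, open points did not, and lines are medians. The median lies at 1.57 for the IGF-system probes and between -0.37 and 0.25 for the 7 lists; Esm1 lies lowest, at -3.20.

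Few other probes shared the pattern of Igf2 over the 8 arrays. By the root mean square difference of the array values after each probe's NC mean was taken off, the nearest were Sbsn (0.086), Gsta4 (0.092), Cdh11 (0.134), Mfap4 (0.138) and Nrep (0.138), with differences of 2.11 to 2.32. The pattern of Igf1r was common: 299 tested probes lay within 0.1 of it, beside 2 for Igf2, and the nearest were Camsap1, Stk24, Mettl21a, Smad1 and Nhlrc2, at 0.046 to 0.056. This likeness describes 8 arrays in 2 groups and largely follows the size of the difference between them. The counts of near probes thus mostly restate how common a difference of that size was.

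Marker genes of cell types were read beside these values. Each summed level adds probes of unlike brightness, so the brightest probes set it, and it is not an amount of a cell type. Of 25 hepatocyte markers 10 were measured, 4 higher and 4 lower, and their summed level was 12.1 to 14.4 in NC and 24.6 to 27.3 in siRNA arrays. Most of the gain in that sum came from Arg1 (8.25 to 9.87 in NC and 13.4 to 17.8 in siRNA) and Cyp2e1 (0.0996 to 0.249 and 4.40 to 6.28). Asgr1, above background on 4 NC and 0 siRNA arrays, was at least 4.70-fold lower at the 75th percentile scaling. With normexp its log2 difference was -1.20. Krt18 was above background on only 1 siRNA array. Alb, Ttr, Tf, Serpina1 and Apoa2 were above background on 0 arrays, and Apob and Tdo2, also not measured, on 3. Foxa2, above background on 4 NC and 4 siRNA arrays, rose by 0.63 ± 0.11 (SE). Hnf4a, above background on 1 NC and 4 siRNA arrays, was called higher (0.83) but was at -0.40 with normexp. Afp and G6pc1 were also called lower, at -0.42 and -1.13. Of 21 fibroblast and stellate markers 14 were measured, 7 higher and 2 lower, with a summed level of 930 to 962 in NC and 999 to 1088 in siRNA arrays. Sparc (278 to 327 in NC and 383 to 414 in siRNA) was the brightest, and dimmer probes changed by more. Col3a1 rose by 2.66 ± 0.07 (SE) and Dcn by 1.64 ± 0.31, the latter at 0.59 with normexp. Pdgfrb and Timp1 fell by 0.50 ± 0.11 and 0.47 ± 0.13, but were at 0.04 and 0.08 with spike-in scaling. Krt7 (1.01 to 1.38 in NC and 3.44 to 4.21 in siRNA) carried the cholangiocyte sum, in which Sox9 and Spp1 fell. Kdr (0.953 to 1.61 and 2.94 to 4.13) carried most of the endothelial one. In the latter, Vwf and Tek were above background on 4 NC and 0 siRNA arrays. At the 75th percentile scaling they were lower by at least 8.18-fold and 2.93-fold. With normexp their log2 differences were -1.61 and -0.99. Cdh5, above background on 0 NC and 4 siRNA arrays, was at least 1.31-fold higher at the 75th percentile scaling. With normexp its log2 difference was -0.32. Eng rose by 0.89 ± 0.14 (SE) and Flt1 fell by 0.62 ± 0.12. The endothelial (6 of 10 measured, 3 higher and 3 lower, 2.41 to 3.14 in NC and 4.45 to 5.99 in siRNA arrays), cholangiocyte (3 of 8, 1 higher and 2 lower, 2.12 to 2.37 and 4.24 to 4.85) and leukocyte markers (2 of 13, 0 higher and 1 lower, 6.43 to 7.28 and 5.13 to 6.22) also moved; their part in the IGF values was not tested. The array's 75th percentile was 245 to 261 in NC and 289 to 322 in siRNA arrays, 57.3% to 64.1% and 55.4% to 59.1% of spots were above background, and the correlation between arrays over tested probes was 0.986 to 0.993 within and 0.946 to 0.962 between groups.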

How the data were processed

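Total RNA of 8 BRL-3A samples was hybridised to 1-colour Agilent rat arrays. Per the file headers, the authors' deposited intensity of each spot is background-subtracted and detrended by Agilent Feature Extraction 12.0.3.1, with no scaling between arrays; the submitters' processing notes also name limma, with no role given. The authors' deposited series table has 0 probes of the IGF genes among its log2 values, so it was not used. Control spots were left out. The spots of a probe not marked as outliers were averaged, and where all its spots were marked, all were used. Log2 intensity minus the array's 75th percentile over all non-control spots was tested with limma 3.58.1 in R 4.3.3 (lmFit, eBayes, two-sided). Benjamini-Hochberg adjustment was over the 24853 probes above background on at least 3 of 4 arrays of a group. The fit was tested on simulated data with independent noise and few changed probes. That setting held no slide or scaling effect, so it cannot speak to either. Ratios were tested by exact permutation of the 70 splits. The genes and lists were chosen with earlier results of these data known. Named were all probes of the 10 genes, in each list the up to 4 called genes with the smallest adjusted p, and the 5 genes most like Igf2 and Igf1r. Alternatives were quantile, median, spike-in and detected-probe scaling, normexp background correction (offset 50), no filter on dim probes, a filter on all 8 arrays, a replicate block and each array left out. The number of arrays limits the precision.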

Additional observations from a re-analysis of the deposited data

Results flagged for a closer look

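In 4 of the groups of 4 arrays, 1 array stood far from the other 3, measured as its gap to the nearest of them divided by the group's range, and this share was past Dixon's 95% limit for 4 values; chance gives this in about 1 in 20 groups, and 70 were examined. For Igfbp2 this was siRNA replicate 4, at 3.87 on the log2 scale against 3.64 to 3.67 (gap share 0.873). For Ghr it was siRNA replicate 1, at -1.23 against -1.02 to -1.005 (0.918), and for Grb10 the same array, at 3.75 against 3.91 to 3.93 (0.857). For Ins2 it was NC replicate 4, at -3.46 against -2.98 to -2.95 (0.933).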

How the results depend on the processing

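The 8 higher probes stayed 8 with quantile, median, spike-in and detected-probe scaling, with the stricter filter and without any 1 array; they were 6 with normexp and 9 of 15 with no filter. The 1 lower probe, Igf1r, became 0 with the array median, 0 with spike-in scaling and 0 with normexp, and 2 with no filter; the added calls, Igf1 A_44_P421502 (higher) and Igfbp3 A_44_P180127 (lower), were below background on all arrays. Pathway calls were 14 of 79 with normexp against 50, and 44 to 51 without 1 array. Of the named genes, spike-in scaling reversed Igf1r (0.12), Vps26a (0.25), Gga3 (0.20), Ccn4 (0.050) and Ptpn1 (0.031), and of the other pathway genes called lower it turned 7 positive (Crk, Foxo4, Sh2b1, Gab2, Gsk3b, Tsc2 and Pdpk1, 0.21 to 0.43); the array median reversed Vps26a (0.018); normexp reversed Stat5b (-0.15) and the ratio of the Igfbp4 probes (1.02). The cause of these changes was not tested. The ratios gave 6 calls with quantile normalization and 7 with normexp; without 1 array they gave 5 to 6, the lost one being Igf2 over Igf1 without NC replicate 4 or any 1 siRNA array (0.33 to 0.46, exact permutation, adjusted p = 0.0762). Same-numbered arrays deviated together little (correlations 0.01, 0.03, -0.03 and 0.21). For number 4 the own number was the best match, and for the others it was not. The main fit used no pairing, and with a replicate block 8 probes were higher, 1 lower and 49 pathway genes called. A slide block could not be fitted, since each slide held 1 group. Signal over background limits Igfbp3, Igfbp5 and 2 Igf1 probes.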
